A study of Sus scrofa with 8 samples.

Results

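The transcripts described here come from the mitochondrial (MT) genome of the pig. They are the 37 genes that the deposited count table places on chromosome MT, of 24358 genes in all, and they comprise 13 protein-coding, 2 ribosomal RNA (rRNA) and 22 transfer RNA (tRNA) genes. The study measured RNA by sequencing in porcine induced pluripotent stem cells (piPSCs, Sus scrofa) that overexpressed the transcription factor IRF-1 and in control cells, to learn how IRF-1 affects pluripotency. The data are 2 libraries of IRF-1 overexpressing cells (replicates 1 and 3) and 2 libraries of control cells (replicates 6 and 8).

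According to the study's methods, the cells were DOX-hLIF-2i piPSCs, made from porcine embryonic fibroblasts that carried an OCT4-tdTomato reporter, with a lentivirus that expresses OCT4, SOX2, KLF4 and c-MYC under doxycycline. By those methods, both groups share this background. The study reports, for DOX-hLIF-2i piPSCs before these transfections, that self-renewal relied on the doxycycline-driven factors. The overexpressing cells received PB-CAG-IRF1-Flag, in which the CAG promoter drives an IRF1 insert taken from fibroblast cDNA, and the control cells received PB-CAG-Flag. A PCAGPBase transposase plasmid was used, and cells were selected with puromycin and passaged. The labels give the breed as domestic pig, the stage as adult, and an LCDMV culture of cells named PC-iPS, where the methods name another culture and other cells. They also state that feeder cells were left behind by a plating step of 1 hour, that the suspended cells were used, and that libraries were made with oligo(dT). The labels give overexpression of IRF-1 as the genotype of all 4 libraries, so the groups follow the assignment that the study uses. IRF1 was counted 8206 and 5485 times in the overexpressing libraries and 55 and 56 times in the controls. Nothing in the labels says whether the libraries of a group came from separate cultures, so the p-values may measure technical spread only.

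Both strands of the circular MT genome are transcribed into long precursor RNAs, and the tRNA genes that lie between most other genes are cut out to release the mRNAs and rRNAs. The mRNAs encode core subunits of respiratory complexes I, III and IV and of the ATP synthase (complex V), whose other subunits come from nuclear genes, while the rRNAs and tRNAs serve the mitochondrial ribosome. Once released, MT transcripts differ in the length of their poly(A) tails and in stability, and pluripotent cells are known for small mitochondria with few cristae and a strong reliance on glycolysis.

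A count is a read assigned to a gene by the authors. The counts summed over all genes were 24923319 and 20858333 in overexpressing replicates 1 and 3, and 15925429 and 17097669 in control replicates 6 and 8. Depth and group therefore cannot be told apart, since both overexpressing libraries were deeper than both controls. Levels are given in CPM, the usual unit of a count scaled by the library total and by edgeR's TMM factor, which ranged from 0.982 to 1.02. A count of 1 was worth between 0.0401 and 0.0628 CPM, and a gene with at most 3 counts in a library was taken to be at the floor there. A level per kilobase is the CPM divided by the gene's length in kilobases, and levels of MT genes are compared with each other on that scale. Ranks by counts, and the most abundant gene named for a list of markers, take no account of length. The libraries were selected by poly(A), so the values describe MT RNA that oligo(dT) captured, not all MT RNA. Counts with at least 1 read were found for 37 and 36 MT genes in the overexpressing libraries and for 37 and 34 in the controls.

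The comparison asks how much of the RNA counted came from MT genes in IRF-1 overexpressing cells and in control cells, and which MT genes account for the difference. MT genes took a larger share of the counts in both overexpressing libraries than in either control. The difference lay in the protein-coding genes. The rRNA share overlapped between the groups, and the tRNA share differed by 0.00102 percentage points. With each group at 2 libraries, an exact two-sided permutation test cannot give a p below 0.33.

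All MT genes together held 8.62% of the counts in overexpressing replicate 1 (95% Wilson interval 8.61 to 8.63) and 7.57% in replicate 3 (7.56 to 7.58). In the controls they held 6.29% in replicate 6 (6.28 to 6.30) and 6.68% in replicate 8 (6.67 to 6.69). Both overexpressing libraries stood above both controls, and replicate 1 stood highest. The Wilson intervals cover counting error only, and they were far narrower than the gaps between replicates. The group means were 8.10% ± 0.74 and 6.48% ± 0.275 (SD, n = 2 each), a difference of 1.61 percentage points and a ratio of 1.25 (exact two-sided permutation p = 0.33). The difference was 1.09 points without overexpressing replicate 1 and 2.14 points without overexpressing replicate 3. In bulk libraries, more MT RNA per overexpressing cell and more cells rich in MT RNA among them cannot be told apart.

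By class, the protein-coding genes held 8.56% and 7.53% of the counts in the overexpressing libraries against 6.25% and 6.61% in the controls, a difference of 1.62 points (exact two-sided permutation p = 0.33). The 2 rRNA genes held 0.0412% and 0.0333% against 0.0317% and 0.0518%. Control replicate 8 had the highest rRNA share and control replicate 6 the lowest, so the groups overlapped, and the difference of -0.00446 points (exact two-sided permutation p = 1) was 0.00561 points without control replicate 8. The 22 tRNA genes held 0.0136% and 0.0135% against 0.0127% and 0.0124%, which do not overlap, a difference of 0.00102 points (exact two-sided permutation p = 0.33). Their Wilson intervals did overlap, since the lower bound in overexpressing replicate 3 was 0.0130% and the upper bound in control replicate 6 was 0.0133%. Of all MT counts, the protein-coding genes made up 99.4% in both overexpressing libraries and 99.3% and 99.0% in the controls. The rRNA genes made up 0.478% and 0.44% of MT counts against 0.503% and 0.776%. The tRNA genes made up 0.158% and 0.179% of MT counts against 0.202% and 0.186%. That share was lower in both overexpressing libraries, whereas the tRNA share of all counts was higher.

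**Figure D1:**
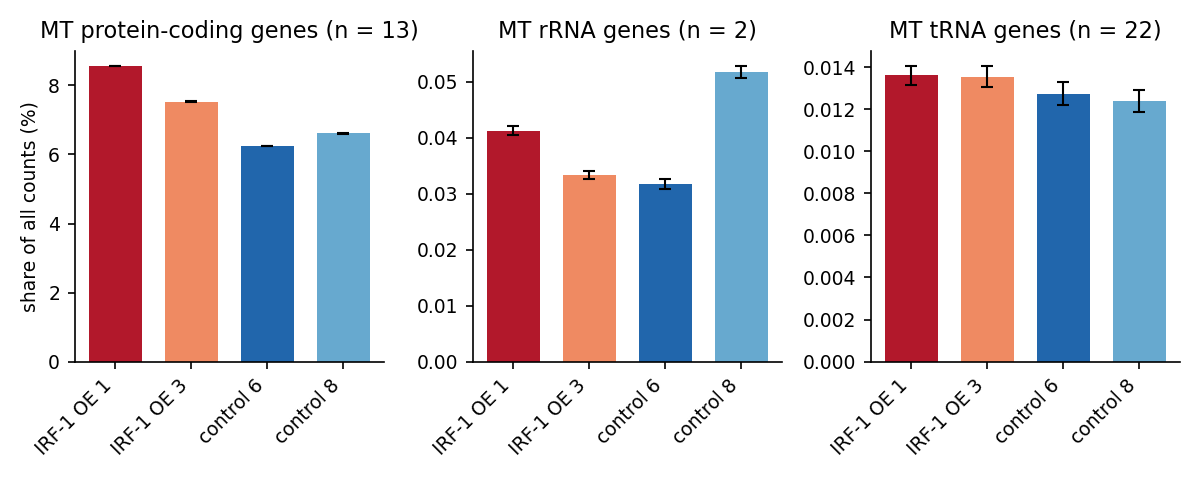
Share of all counts (percent) on MT protein-coding, rRNA and tRNA genes, 1 bar per library, with IRF-1 overexpressing replicates 1 and 3 in red and control replicates 6 and 8 in blue, and 95% Wilson intervals as error bars. The protein-coding share was 8.56% and 7.53% in the overexpressing libraries against 6.25% and 6.61% in the controls, whereas the rRNA share of control replicate 8 (0.0518%) exceeded that of the other libraries.

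COX1, the catalytic subunit of cytochrome c oxidase, had the most counts of any gene in each of the 4 libraries, with 405635 and 294735 in the overexpressing and 206459 and 237789 in the control cells. Among the 10 genes with the most counts, 8 were MT genes in each overexpressing library, against 6 and 7 in the controls. CYTB stood at rank 10 in both overexpressing libraries and at ranks 20 and 12 in the controls. At the other end of the MT protein-coding genes, ATP8 lay between rank 416 and rank 441 in the 4 libraries.

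Per kilobase, the order of the MT protein-coding genes was much alike in both groups. COX3, a core subunit of complex IV, stood highest, at 18899 ± 1482 CPM per kilobase in the overexpressing and 15042 ± 562 in the control cells (SD, n = 2 each). ATP6, the proton channel subunit of ATP synthase, and COX2, the copper subunit of complex IV that receives electrons from cytochrome c, came next, at 14569 ± 458 and 14017 ± 624 CPM per kilobase in the overexpressing cells and 11263 ± 1662 and 10680 ± 142 in the controls. The ranges of ATP6 and COX2 overlapped in both groups, while COX3 stood apart from them in both. COX1 followed at 9864 ± 987 and 8671 ± 175 CPM per kilobase, apart from its neighbours in the order in both groups. The complex I genes ND1 and ND2 came next, with overlapping ranges, and then ND3. From the level of ND3 down to that of ND5, each gene overlapped with the next one in both groups. CYTB held place 8 of this order in the overexpressing cells and place 10 in the controls. ATP8 was the lowest protein-coding gene in both groups, at 1597 ± 26.6 and 1708 ± 74.5 CPM per kilobase. The bases it shares with ATP6 leave its count, and so this place, uncertain. The rRNA genes lay below all protein-coding genes in these oligo(dT) libraries, at 197 ± 33.8 and 219 ± 78 CPM per kilobase for the longer and 67.2 ± 2.87 and 72.8 ± 7.63 for the shorter.

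**Figure D2:**
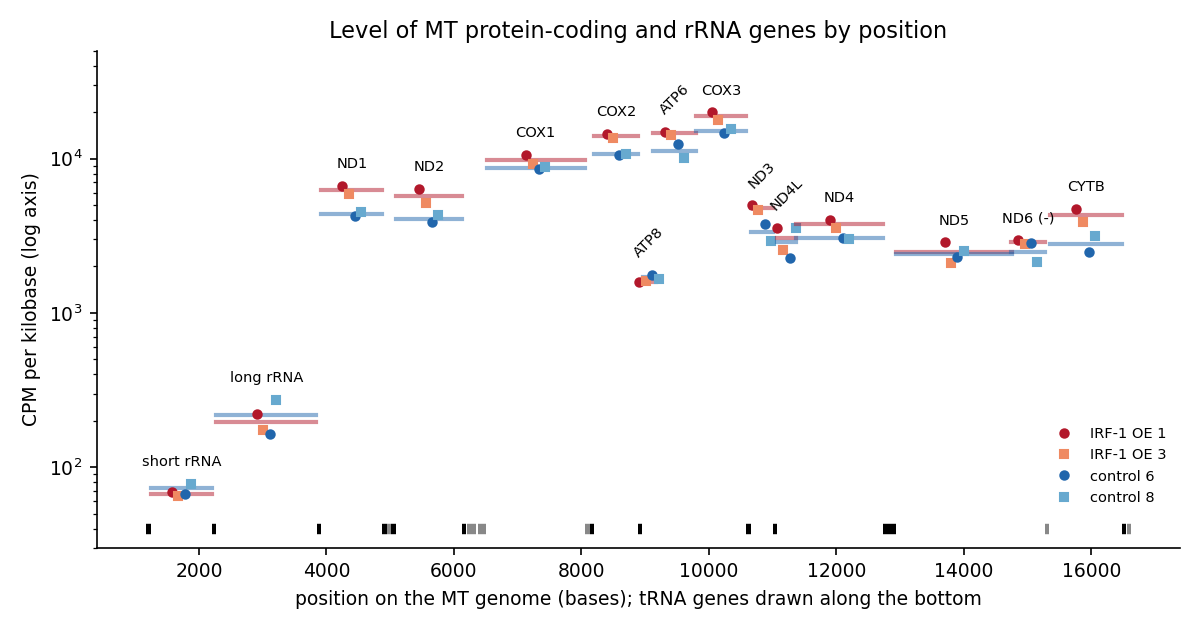
Level (CPM per kilobase, log axis) of the 13 protein-coding and 2 rRNA genes against their position on the MT genome in bases, with a point per library, group means as lines over the length of the gene, and tRNA genes as ticks along the bottom (minus strand in grey). COX3 stood highest (18899 and 15042 CPM per kilobase), and the shorter rRNA gene lay at 67.2 and 72.8. ATP8 was the lowest protein-coding gene, though the bases it shares with ATP6 leave its count uncertain.

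Gene positions overlap in places, and reads there may be assigned to either gene or to neither. ATP8 and ATP6 share 43 bases, ND4L and ND4 share 7, and ATP6 and COX3 share 1, all on the plus strand. ND5 and ND6 share 17 bases on opposite strands. The strand setting of the counting is not given in the sources used here, so reads from ND6 and reads antisense to it cannot be told apart. Among the tRNA genes, those starting at 4877 and 4943 share 3 bases on opposite strands, and those starting at 6379 and 6444 share 1 base. All other neighbours lie end to end or within 32 bases of each other, as with ND1, which ends at the base before a tRNA gene.

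For single genes, edgeR's quasi-likelihood test was run on all 13250 genes that passed a filter on low counts, with Benjamini-Hochberg adjustment over all of them, and a gene was called at an adjusted p under 0.05. The log2 fold change is that of overexpressing over control cells, with its standard error (SE). Of the 13 MT protein-coding genes, 5 were called higher, where 13.9% of all genes tested were called higher, and 0 were called lower, where 15.5% were (0 and 0 when each library was scaled by its counts on MT protein-coding genes). The 5 genes were ND1, ND2, COX2, ND3 and CYTB, and 8 of the 13 had an unadjusted p under 0.05, all 8 higher. DESeq2 and limma-voom called the same 5 genes and also called 0 lower. Under a second rule, which further requires a log2 fold change of 1 or more in either direction, 0 of the 13 were called by edgeR, against 19.3% of all genes tested. In 9 of the 13, both overexpressing libraries lay above both controls in CPM, where 34.8% of all genes tested did. In ATP8 both lay below, and in ND4L, ND5 and ND6 the groups overlapped.

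The median log2 fold change over the 13 was 0.33, against -0.0016 over all genes tested. Of the 13, 12 had a log2 fold change above 0, against 6 of 13 when each library was scaled by its own counts on MT protein-coding genes. That scaling moved the median of all genes tested to -0.33, so relative to MT counts the typical gene stood lower by that amount. With it the median of the 13 was -0.00063, edgeR called 0 of them, and 0 had an unadjusted p under 0.05. No other tool was run with that scaling.

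The number of MT protein-coding genes called rested on single libraries. The share of all genes tested that was called higher moved with them too. It was lower without either overexpressing replicate, and higher without either control replicate, than with every library kept. Without overexpressing replicate 1, edgeR called 0 of the 13 (3 at an unadjusted p under 0.05), and no other tool was run on 3 libraries. The calls numbered 3 without overexpressing replicate 3, namely ND1, ND2 and CYTB. They numbered 9 without control replicate 6 and 7 without control replicate 8, both including the same 5 genes. The added genes were ATP6, COX3, ND4 and ND6 in the former case and COX3 and ND4 in the latter. The median log2 fold change was 0.26 without overexpressing replicate 1 and between 0.37 and 0.41 without each of the other libraries. Overexpressing replicate 1 was above replicate 3 in 12 of the 13 (median log2 difference 0.18). Control replicate 6 was above control replicate 8 in 5 of the 13, with log2 differences from -0.64 for ND4L to 0.42 for ND6. Overexpressing replicate 3 was above control replicate 6 in 10 of the 13 and above control replicate 8 in 10 of the 13, but above both in 9.

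Complex I passes electrons from NADH to ubiquinone, and 7 of its subunits are MT-encoded. ND1 (ENSSSCG00000018065, MT 3922 to 4876), which helps form the ubiquinone site, was counted at 6346 and 5590 CPM in the overexpressing and 4080 and 4333 CPM in the control libraries. Both overexpressing libraries were above both controls by more than the replicates differed. Its log2 fold change was 0.50 (SE 0.124, Benjamini-Hochberg adjusted p = 0.0196 by the quasi-likelihood test of edgeR), and without overexpressing replicate 1 it was 0.42 with an adjusted p of 0.177 in edgeR. ND2 (ENSSSCG00000018069, MT 5087 to 6128), a subunit of the proton-pumping membrane arm, had 6659 and 5338 CPM against 4034 and 4486. Here too the groups were apart, with overexpressing replicate 1 the highest. The log2 fold change was 0.49 (SE 0.145, adjusted p = 0.0373 in the same edgeR test), and 0.34 with an adjusted p of 0.295 without overexpressing replicate 1.

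ND3 (ENSSSCG00000018084, MT 10653 to 10998), a small subunit at the joint of the complex's arms, had 1722 and 1608 CPM in the overexpressing and 1295 and 1011 CPM in the control libraries. The groups were apart, and the controls were farther from each other than the overexpressing libraries. With a log2 fold change of 0.53 (SE 0.15, adjusted p = 0.0332 by edgeR, Benjamini-Hochberg adjustment), ND3 was called. It was not called without overexpressing replicate 1 or without overexpressing replicate 3. The log2 fold change of ND3 ran from 0.37 to 0.72 with each library left out. ND4 (ENSSSCG00000018087, MT 11359 to 12736), a proton-pumping subunit, had 5530 and 4856 CPM against 4194 and 4173. The groups did not overlap, but the log2 fold change of 0.31 (SE 0.123, adjusted p = 0.0967 in edgeR) was not called. It was called without control replicate 6 and without control replicate 8, at an adjusted p of 0.044 in edgeR each time. Scaled by MT counts it was -0.02.

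In the other 3 MT subunits of complex I the groups overlapped. ND4L (ENSSSCG00000018086, MT 11069 to 11365), the smallest of them, had 1054 and 760 CPM in the overexpressing and 673 and 1049 CPM in the control libraries. The replicates of each group differed more than the groups did, and the log2 fold change of 0.08 (SE 0.235, adjusted p = 0.843 in edgeR) changed sign to -0.17 without overexpressing replicate 1, to -0.21 without control replicate 6 and to -0.26 when scaled by MT counts. ND5 (ENSSSCG00000018091, MT 12935 to 14755), the longest MT protein-coding gene and a proton-pumping subunit, had 5227 and 3856 CPM against 4201 and 4553. Both controls lay between the overexpressing libraries. For ND5 the log2 fold change was 0.05 (SE 0.162, adjusted p = 0.838 in edgeR), and -0.17 without overexpressing replicate 1, -0.01 without control replicate 6 and -0.29 when scaled by MT counts. ND6 (ENSSSCG00000018092, MT 14739 to 15266), the one protein-coding gene on the minus strand, had 1563 and 1466 CPM against 1502 and 1123, so that control replicate 6 lay between the overexpressing libraries. For ND6 the log2 fold change was 0.21 (SE 0.16, adjusted p = 0.376 in edgeR) and -0.12 when scaled by MT counts. Without control replicate 6 it was called, at 0.43 with an adjusted p of 0.015 in edgeR, and without control replicate 8 it was 0.02 with an adjusted p of 0.913.

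Summed over the 7 genes, complex I stood at 28102 and 23474 CPM in the overexpressing libraries against 19978 and 20729 in the controls, a ratio of means of 1.27 (exact two-sided permutation p = 0.33).

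Complex III passes electrons on to cytochrome c, and CYTB (ENSSSCG00000018094, MT 15342 to 16481), its heme-bearing cytochrome b, is the MT-encoded subunit. CYTB was counted at 5396 and 4427 CPM in the overexpressing and 2839 and 3569 CPM in the control libraries. Each overexpressing library was above each control, although the replicates of each group were also unequal. The log2 fold change was 0.62 (SE 0.159, 95% interval 0.25 to 0.99, adjusted p = 0.0237 by edgeR, Benjamini-Hochberg adjustment). With every library kept, this was the highest of the MT protein-coding genes. It was 0.48 without overexpressing replicate 1, with an adjusted p of 0.173 in edgeR, and 0.46 without control replicate 6, where the gene was still called. Scaled by MT counts it was 0.28, with an adjusted p of 0.312 in edgeR. Another MT protein-coding gene stood highest without overexpressing replicate 1, at 0.49, and without control replicate 6, at 0.72.

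Complex IV, cytochrome c oxidase, reduces oxygen, and its 3 core subunits are MT-encoded. COX2 (ENSSSCG00000018078, MT 8203 to 8890) had 9947 and 9340 CPM in the overexpressing and 7279 and 7417 CPM in the control libraries. The replicates of each group were close together and the groups far apart. COX2 had a log2 fold change of 0.39 (SE 0.114, adjusted p = 0.0364 by edgeR, Benjamini-Hochberg adjustment). It was not called without overexpressing replicate 1 or without overexpressing replicate 3. Its log2 fold change ran from 0.36 to 0.44 with each library left out. COX3 (ENSSSCG00000018082, MT 9800 to 10583) had 15638 and 13995 CPM against 11482 and 12104, with the groups apart. Its log2 fold change of 0.33 (SE 0.12, adjusted p = 0.0765 in edgeR) was not called, but it was without control replicate 6 (adjusted p = 0.033) and without control replicate 8 (adjusted p = 0.0109). COX1 (ENSSSCG00000018075, MT 6511 to 8055) had 16318 and 14162 CPM against 13205 and 13588. The groups did not overlap, but overexpressing replicate 3 was closer to control replicate 8 than to its own replicate, and the log2 fold change of 0.19 (SE 0.123, adjusted p = 0.298 in edgeR) was not called. Leaving out overexpressing replicate 1 gave 0.09 and leaving out replicate 3 gave 0.29, and scaling by MT counts gave -0.15.

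Complex V makes ATP, and 2 of its subunits are MT-encoded from overlapping reading frames. ATP6 (ENSSSCG00000018081, MT 9120 to 9800) had 10142 and 9701 CPM in the overexpressing and 8470 and 6870 CPM in the control libraries. The groups did not overlap, and the controls differed from each other more than the overexpressing libraries did. The log2 fold change of 0.37 (SE 0.137, adjusted p = 0.0798 in edgeR) was not called, but without control replicate 6 it was 0.53 with an adjusted p of 0.00119 in edgeR. ATP8 (ENSSSCG00000018080, MT 8959 to 9162), a small subunit of the membrane part, had 322 and 330 CPM against 359 and 338. It was the one MT protein-coding gene with both overexpressing libraries below both controls. ATP8 had a log2 fold change of -0.10 (SE 0.126, 95% interval -0.39 to 0.20, adjusted p = 0.606 in edgeR), and -0.42 with an adjusted p of 0.121 when scaled by MT counts, the lowest adjusted p of the 13 under that scaling. The bases ATP8 shares with ATP6 leave its count uncertain.

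**Figure D3:**
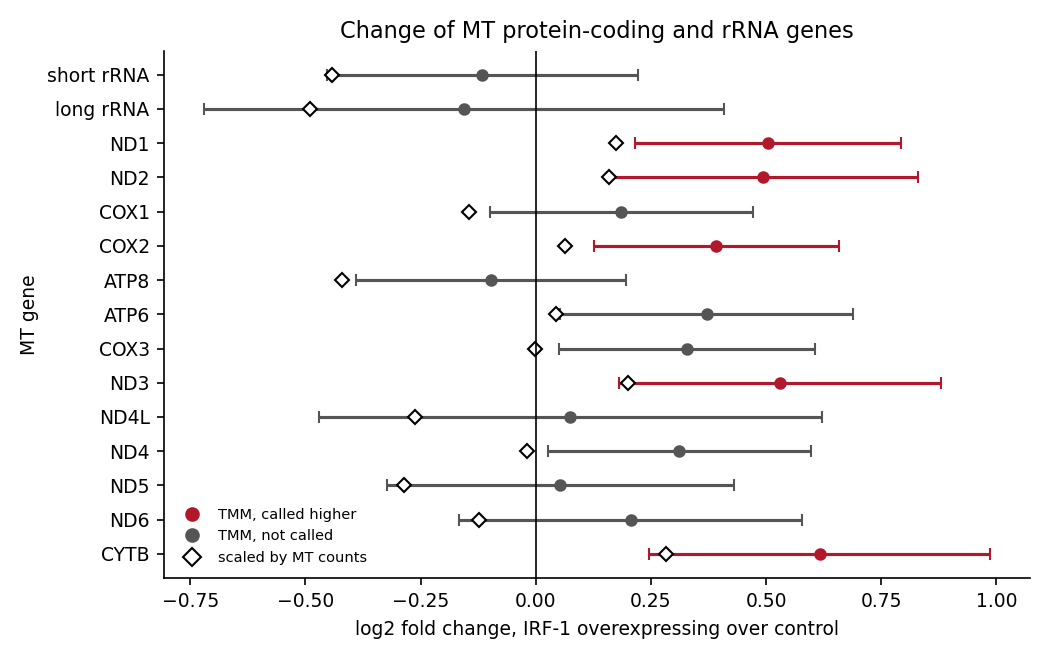
Log2 fold change (overexpressing over control) of the 13 MT protein-coding and 2 rRNA genes in the order of the MT genome, as circles with 95% intervals (red where called higher), and as diamonds when each library was scaled by its own counts on MT protein-coding genes. In the former scaling 12 of the 13 protein-coding genes lay above 0, from -0.10 for ATP8 to 0.62 for CYTB, and in the latter 6 of the 13 did.

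The composition of the MT protein-coding counts does not depend on how libraries are scaled to each other. COX1 made up 19.0% and 18.8% of these counts in the overexpressing libraries against 20.8% and 21.0% in the controls, a difference of -2.0 points (SD 0.162 and 0.191, n = 2 each), although its CPM was higher in both overexpressing libraries. CYTB made up 6.28% and 5.87% against 4.46% and 5.52%. ND5 made up 6.09% and 5.11% against 6.60% and 7.05%. The share of CYTB was thus higher, and that of ND5 lower, in both overexpressing libraries. ND1 made up 7.39% and 7.41% against 6.41% and 6.71%, and ATP8 made up 0.375% and 0.437% against 0.565% and 0.523%. In all, 4 genes had a higher share in both overexpressing libraries (ND1, ND2, COX2 and CYTB), 4 had a lower one (COX1, ATP8, ND4 and ND5), and 5 overlapped. The shares sum to a whole, so a rise in some genes requires a fall in others. In CPM, both overexpressing libraries lay above both controls in 4606 of the 13250 genes tested and below both in 4481. Among the 5 genes called higher, ND3 was the one whose share overlapped, at 2.01% and 2.13% against 2.04% and 1.56%.

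By complex, the share of complex III was higher by 1.08 points and that of complex IV lower, at a difference of -1.49 points, with the groups apart in both (exact two-sided permutation p = 0.33 for each). The difference for complex III was 0.55 points without control replicate 6 and 1.61 points without control replicate 8. Complex IV held 48.8% and 49.7% of the counts in the overexpressing libraries against 50.3% and 51.2% in the controls, but when counts were first divided by gene length the groups overlapped, at 46.1% and 46.7% against 46.4% and 48.1%. Its difference of -1.49 points was -0.99 points without control replicate 8. Complex I held 32.7% and 31.1% against 31.4% and 32.1%, and complex V held 12.2% and 13.3% against 13.9% and 11.2%. Both overlapped. The difference for complex I, 0.18 points, was -0.62 points without overexpressing replicate 1 and -0.16 points without control replicate 6. For complex V the difference of 0.22 points was -0.33 points without overexpressing replicate 3 and -1.14 points without control replicate 8.

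**Figure D4:**
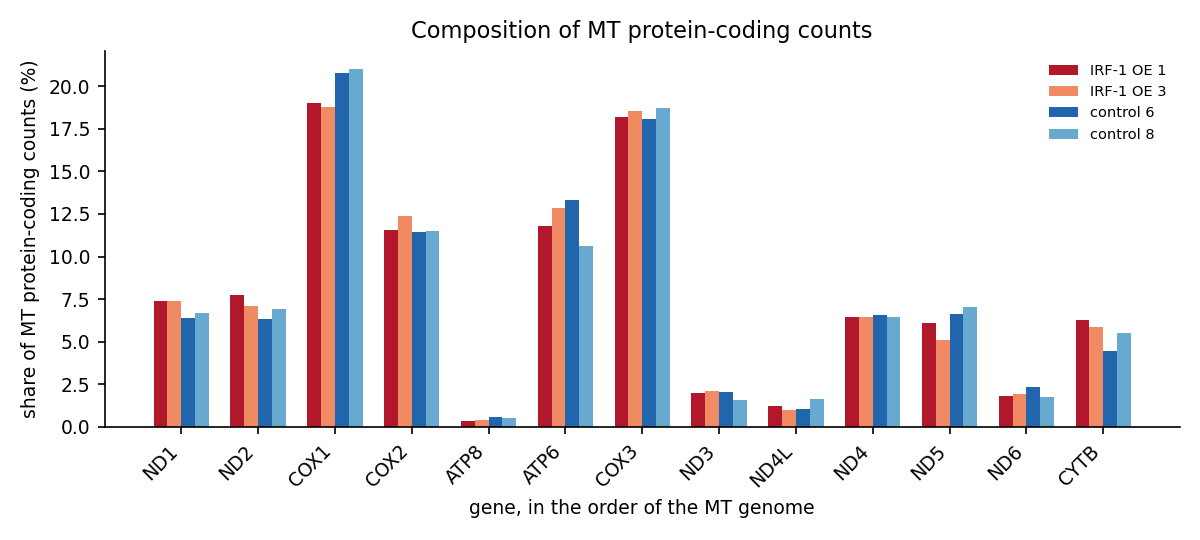
Share (percent) of the counts on MT protein-coding genes that each of the 13 genes held, with a bar per library, overexpressing replicates in red and controls in blue. The share of COX1 was 19.0% and 18.8% in the overexpressing libraries against 20.8% and 21.0% in the controls, and that of CYTB was 6.28% and 5.87% against 4.46% and 5.52%.

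The 2 rRNA genes encode the RNAs of the small and the large subunit of the mitochondrial ribosome. The shorter (ENSSSCG00000018061, MT 1246 to 2205) had 66.5 and 62.6 CPM in the overexpressing and 64.7 and 75.1 CPM in the control libraries. The longer (ENSSSCG00000018063, MT 2274 to 3844) had 347 and 272 CPM against 258 and 431. In both, control replicate 8 was the highest library and the groups overlapped. The log2 fold changes were -0.12 (SE 0.145, adjusted p = 0.589 in edgeR) and -0.16 (SE 0.243, adjusted p = 0.668 in edgeR). EdgeR called 0 of the 2, with 0 at an unadjusted p under 0.05, and DESeq2 and limma-voom also called 0. The value of the longer gene rested on the controls, since leaving out control replicate 8 gave 0.27 and leaving out control replicate 6 gave -0.48. In the latter case it was called lower, with an adjusted p of 0.037 in edgeR. Without overexpressing replicate 3 it was 0.01. The value of the shorter gene was 0.0037 without control replicate 8. Between replicates, the log2 difference of the longer gene was 0.35 for overexpressing replicate 1 over replicate 3 and -0.74 for control replicate 6 over replicate 8. Next to the 2 rRNA genes lie the tRNA genes at 1176 to 1245, at 2206 to 2273 and at 3845 to 3919.

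The 22 tRNA genes are 59 to 75 bases long, 14 on the plus and 8 on the minus strand, and summed to 3391 and 2823 counts in the overexpressing and 2026 and 2118 in the control libraries. The counts do not separate mature tRNAs from precursors. The tables used give these genes by locus, so they are named by position. The tRNA gene from 8891 to 8957, between COX2 and ATP8, had 721 and 513 counts in the overexpressing against 477 and 323 in the control libraries. In CPM it stood at 29.0 and 24.6 against 30.5 and 18.5, so the groups overlapped. The gene from 12737 to 12805, next to ND4, had 672 and 518 counts against 368 and 439. Its CPM values of 27.0 and 24.9 against 23.5 and 25.1 overlapped too. On the minus strand, the gene from 6272 to 6346 had 701 and 618 counts against 367 and 389. In each of the 4 libraries these 3 held more counts than any other tRNA gene, although their order differed between libraries.

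Of the 22 tRNA genes, 15 passed the filter on low counts, and edgeR called 0 of them, with 0 at an unadjusted p under 0.05. DESeq2 and limma-voom also called 0. The other 7 had between 0 and 17 counts in a library and were not tested. Among the 15, log2 fold changes ran from -0.88 for the gene from 5017 to 5086, which had 8, 9, 10 and 13 counts, to 0.78 for the gene from 8059 to 8129, which had 101 and 52 counts against 33 and 30. Leaving out overexpressing replicate 1 gave 0.40 for the latter tRNA, and leaving out replicate 3 gave 1.09. The median was 0.09, 10 of the 15 were above 0, and 8 of these 10 were below 0 when scaled by MT counts. The lowest adjusted p, 0.172 in edgeR, belonged to the gene from 6272 to 6346, with 28.2 and 29.7 CPM against 23.5 and 22.2 and a log2 fold change of 0.34 (SE 0.169). Its groups did not overlap. Nor did those of the gene from 6129 to 6196, at 2.45 and 2.50 CPM in the overexpressing libraries against 2.69 and 3.89 in the controls. The log2 fold change of that gene was -0.41 (SE 0.375) and was not called.

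By strand, the 9 minus-strand genes (ND6 and 8 tRNA genes) held 1.86% and 1.99% of the MT counts in the overexpressing libraries against 2.40% and 1.77% in the controls. The groups overlapped, with control replicate 6 the highest and control replicate 8 the lowest (exact two-sided permutation p = 1). The 8 minus-strand tRNA genes summed to 42.1 and 43.1 CPM against 35.0 and 33.1, which do not overlap, a ratio of means of 1.25 (exact two-sided permutation p = 0.33). The 14 plus-strand tRNA genes summed to 94.3 and 92.5 CPM against 94.6 and 87.9, which overlap, a ratio of 1.02. The 12 plus-strand protein-coding genes had a ratio of 1.26. Plus-strand tRNA genes made up 0.109% and 0.122% of MT counts in the overexpressing libraries against 0.148% and 0.135% in the controls, and minus-strand tRNA genes made up 0.0487% and 0.0568% against 0.0546% and 0.0507%.

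Nuclear genes that act on the MT genome, its RNA and its products were read from lists written from general knowledge, with the same edgeR fit. In all 12 lists together, 257 genes were tested, of which 33 were called higher and 8 lower, against 13.9% and 15.5% of all genes tested, with a median log2 fold change of 0.23 against -0.0016. By list, medians ran from -0.35 for mitophagy genes to 0.32 for genes of MT RNA processing, and that for mitophagy was -0.16 without control replicate 6 and -0.22 without overexpressing replicate 1. Without overexpressing replicate 1 the calls were 7 higher and 3 lower, and without overexpressing replicate 3 they were 7 and 4. Without control replicate 6 they were 59 and 7, and without control replicate 8 they were 41 and 9. Calls over all genes tested moved as well. Fewer were made in both directions without either overexpressing replicate than with every library kept. More were higher and fewer lower without control replicate 6, and more were called in both directions without control replicate 8. In the 9 lists with 0 genes called lower, edgeR gave 0 lower at an unadjusted p under 0.05, and DESeq2 and limma-voom also called 0 lower.

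Of 21 genes of MT DNA transcription and replication, 4 were called higher and 0 lower in edgeR, with a median log2 fold change of 0.23. POLRMT, the MT RNA polymerase, was counted 3788 and 3071 times in the overexpressing and 1428 and 1684 times in the control libraries, and its log2 fold change was 0.68 (adjusted p = 0.00842 in edgeR). TFB1M, an rRNA methyltransferase, LIG3, a DNA ligase, and ATAD3A, a membrane ATPase at MT DNA, were called at 0.66, 0.66 and 0.46. TFAM, which packages MT DNA and starts transcription, had 3647 and 2937 counts against 1638 and 2191, and its log2 fold change of 0.32 (adjusted p = 0.144 in edgeR) was not called. Neither the initiation factor TFB2M (0.32, adjusted p = 0.279 in edgeR) nor the elongation factor TEFM (-0.19, adjusted p = 0.683 in edgeR) was called, and TEFM stood at -0.44 without control replicate 6 and at 0.13 without control replicate 8. Without overexpressing replicate 1 and without overexpressing replicate 3, POLRMT was not called, although its log2 fold change was 0.667 and 0.705. No other gene of the list was called in either case. At an unadjusted p under 0.05, 4 of the 21 were higher, and DESeq2 and limma-voom called 4 each. Without control replicate 6 the calls were 2, as TFB1M (adjusted p = 0.0548) and ATAD3A (adjusted p = 0.0754) were lost in edgeR. Without control replicate 8 there were 6, TFAM among them (0.47, adjusted p = 0.0307 in edgeR), while TFAM was at 0.20 without control replicate 6.

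Of 32 genes of MT RNA processing and turnover, 9 were called higher and 0 lower in edgeR, with a median of 0.32. The 9 were 28.1% of the list, where 13.9% of all genes tested were called higher. LRPPRC and SLIRP, which bind and stabilise MT mRNAs as a pair, were not called, at 0.39 (adjusted p = 0.0935 in edgeR) and 0.42 (adjusted p = 0.2 in edgeR). LRPPRC was called without control replicate 8 (0.55, adjusted p = 0.00964 in edgeR) and stood at 0.25 without control replicate 6. SLIRP was called without control replicate 6 (0.80, adjusted p = 0.00491 in edgeR) and stood at 0.13 without control replicate 8. PNPT1 and SUPV3L1, the exonuclease and helicase of MT RNA decay, stood at -0.01 (adjusted p = 0.975 in edgeR) and 0.18 (adjusted p = 0.484 in edgeR). Without control replicate 6 they were at -0.165 and 0.06, and without control replicate 8 at 0.17 and 0.31. Among the highest called were GTPBP3, a tRNA modification enzyme (0.78), and MRM3, an rRNA methyltransferase (0.72). The lowest called were the RNA methyltransferases NSUN2 (0.48) and MRM2 (0.58) and the tRNA modification protein MTO1 (0.62). Without overexpressing replicate 1 the list had 3 calls, and NSUN2, MRM2 and MTO1 were not among them (adjusted p = 0.199, 0.122 and 0.146 in edgeR). Without overexpressing replicate 3 it had 2, and the adjusted p of MRM3 was 0.136, of NSUN2 0.167, of MRM2 0.126 and of MTO1 0.0835.

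For the products of MT mRNAs, the nuclear subunits of the respiratory complexes were read beside the MT-encoded ones. Of 57 tested, edgeR called 5 higher and 0 lower, with a median of 0.23. The share called higher, 8.8%, was under the 13.9% of all genes tested. For complex I 1 of 26 was called (NDUFA6, 0.54), for complex III 1 of 6 (UQCR11, 0.93), for complex IV 1 of 10 (COX4I1, 0.66) and for complex V 2 of 11 (ATP5MC1, 0.87, and ATP5MC3, 0.88, which encode the c subunit of the ring). The medians were 0.22, 0.18, 0.31 and 0.25, and they moved with single libraries left out. Without control replicate 8 the median was 0.10 for complex I, 0.16 for complex IV, 0.10 for complex V and 0.11 for all complexes. With control replicate 6 left out instead, it was 0.37 for complex I, 0.51 for complex V and 0.35 for all complexes, and without overexpressing replicate 1 that of complex III was 0.28. Complex II has no MT-encoded subunit. EdgeR called 0 of its 4 genes, with 1 at an unadjusted p under 0.05, and DESeq2 and limma-voom also called 0. Its median was 0.07 (0.12 without overexpressing replicate 1, 0.04 without overexpressing replicate 3 and 0.03 without control replicate 8). SDHA of complex II, at 0.32, ran from 0.24 to 0.41 with each library left out, and it was called without control replicate 6. The 5 calls became 2 without overexpressing replicate 1, 3 without overexpressing replicate 3 and 24 without control replicate 6. NDUFA6 (adjusted p = 0.166), COX4I1 (adjusted p = 0.0719) and ATP5MC3 (adjusted p = 0.0508) were not called in edgeR without overexpressing replicate 1. Without overexpressing replicate 3, neither NDUFA6 (adjusted p = 0.13) nor COX4I1 (adjusted p = 0.0692) was called in edgeR.

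The MT rRNAs are assembled with nuclear-encoded ribosomal proteins, of which 67 were tested. EdgeR called 9 higher and 0 lower, with a median of 0.28 and 17 higher at an unadjusted p under 0.05. The share called higher, 13.4%, was close to the 13.9% of all genes tested. The highest called were MRPS18B (0.70), MRPS33 (0.64) and MRPL16 (0.56), and the lowest called were MRPL4 (0.44), MRPS24 (0.45) and MRPL37 (0.47). The calls were 0 without overexpressing replicate 1 (the lowest adjusted p of these 6 was 0.0783, for MRPS18B, in edgeR) and 1 without overexpressing replicate 3, which was MRPS18B (adjusted p = 0.0468). They were 14 without control replicate 6, where MRPS33 was not called (adjusted p = 0.0739), and 8 without control replicate 8, where MRPL16, MRPL4 and MRPS24 were not (adjusted p = 0.0589, 0.0625 and 0.0557 in edgeR). DESeq2 called 6 and limma-voom 9. Of 32 MT translation factors and tRNA synthetases, edgeR called 1 higher and 0 lower, with a median of 0.23. This was 3.1% of the list, under the same 13.9%. The called gene was CARS2, a tRNA synthetase (0.69, adjusted p = 0.0102 in edgeR). Without overexpressing replicate 3 it was not called (adjusted p = 0.0885), which left the list without a call, and the list had 2 calls without control replicate 6 and 3 without control replicate 8.

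Of 15 regulators of mitochondrial biogenesis, edgeR called 2 higher and 2 lower, with a median of 0.16 (0.09 without control replicate 6). Each direction held 13.3% of the list, where 13.9% of all genes tested were called higher and 15.5% lower. PPARGC1A, a coactivator of mitochondrial genes, was counted 1005 and 644 times in the overexpressing and 201 and 380 times in the control libraries. This gave a log2 fold change of 1.04 (SE 0.272, adjusted p = 0.0243 in edgeR), 0.85 without overexpressing replicate 1 (adjusted p = 0.13) and 1.48 without control replicate 8. The other gene called higher was the deacetylase SIRT3 (0.56), which was not called without overexpressing replicate 1 (adjusted p = 0.157), overexpressing replicate 3 (adjusted p = 0.175) or control replicate 6 (adjusted p = 0.0886 in edgeR). ESRRB, an orphan nuclear receptor, and MYC were called lower, at -4.19 and -2.23. MYC was not called without overexpressing replicate 1 (-1.86) or without control replicate 6 (-1.48). Any reads of the doxycycline-driven c-MYC that were assigned to MYC cannot be told apart from those of the cells' own gene. Neither the transcription factor NRF1 (0.22, adjusted p = 0.376 in edgeR) nor the nuclear receptor ESRRA (0.44, adjusted p = 0.0909 in edgeR) was called, and NRF1 stood at 0.06 without control replicate 6 and at 0.41 without control replicate 8. The list had 1 higher and 1 lower without overexpressing replicate 1 and without control replicate 6, 1 and 2 without overexpressing replicate 3, and 4 and 2 without control replicate 8.

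Of 19 genes of the mitochondrial stress response, edgeR called DNAJA3, a chaperone partner, higher (0.65) and GDF15, a secreted stress signal, lower (-2.91), with a median of 0.08 (0.13 without control replicate 8). Each direction held 5.3% of the list, where 13.9% of all genes tested were called higher and 15.5% lower. DNAJA3 was not called without overexpressing replicate 1 (adjusted p = 0.12) or replicate 3 (adjusted p = 0.0529), and the list had 4 higher calls without control replicate 6. Of 17 genes of mitophagy, the removal of mitochondria by autophagy, edgeR called 3 higher and 5 lower, with a median of -0.35 (-0.16 without control replicate 6 and -0.22 without overexpressing replicate 1). These calls were 17.6% and 29.4% of the list, against 13.9% and 15.5% of all genes tested. The receptor FUNDC1 (0.57), the fission factor MFF (0.53) and the prohibitin PHB2 (0.41) were the genes called higher. The lowest were the cargo receptors SQSTM1 (-1.19), OPTN (-1.06) and CALCOCO2 (-0.55). Without overexpressing replicate 1, and also without overexpressing replicate 3, the calls were 0 higher and 1 lower, the latter being SQSTM1 (adjusted p = 0.0485 and 0.00928 in edgeR). MFF was not called without control replicate 8 (adjusted p = 0.0697), where the calls were 2 higher and 6 lower.

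Marker genes of cell types also differed between the groups, and their part in the result was not tested. Beside the counts called in these lists stand the 15.5% of all genes tested that were called lower and the 13.9% called higher. Of 9 pluripotency markers tested, edgeR called ESRRB, LIN28A, OTX2 and CDH1 lower and 0 higher (1 higher at an unadjusted p under 0.05, 1 by DESeq2 and by limma-voom, and 2 without control replicate 8), with a median of -0.40. NODAL, DNMT3B and EPCAM stood at 1.07, 0.27 and 0.21. The markers summed to 1445 and 1509 CPM in the overexpressing and 1800 and 1978 CPM in the control libraries, though DNMT3B, the most abundant, had a mean of 1020 CPM against 845. NANOG had 8 and 11 counts against 5 and 9 and was not tested, and POU5F1, SOX2, SALL4, DPPA3, ZFP42, TDGF1 and TFCP2L1 were not analysed here. Of 13 fibroblast and feeder cell markers, 7 were called lower and 1 higher, with a median of -1.48. Their sum was 1880 and 1641 CPM against 2233 and 2223, the most abundant was VIM, and LUM, COL5A1 and COL6A3 were at or under the floor in every library. Of 8 trophoblast markers, 5 were called lower and 1 higher, with a median of -2.75 (-1.53 with no filter and -1.56 by DESeq2). Their sum was 319 and 1173 CPM against 15681 and 9620, the most abundant was KRT8, and CDX2, ELF3, HAND1, KRT7 and EOMES were at or under the floor in every library. When the 10 nuclear genes with the most counts, KRT8 among them, were left out of the total, the MT share was higher by 1.64 points in the overexpressing cells.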

How the data were processed

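RNA was sequenced from 2 IRF-1 overexpressing and 2 control libraries of piPSCs. The authors deposited raw counts of reads per gene, made with HISAT2 2.0.4 and featureCounts 1.6.4 per the labels on Sscrofa11.1, beside an annotation column, other than a measurement, that holds each gene's length in bases. Annotation release, strand setting and treatment of multi-mapped reads are not given in the sources used here, and the methods also name htseq-count. MT genes were taken by chromosome, and all 37 were matched to RefSeq genes by start and end. Of 24358 identifiers, 14692 were given a symbol.

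Counts were fitted with edgeR 4.0.16 in R 4.3.3 (TMM, filterByExpr by group, quasi-likelihood test, Benjamini-Hochberg adjustment over 13250 genes). The standard error is the size of the log2 fold change over the square root of F. Shares were tested with exact permutation tests in scipy 1.17.1 under Python 3.11.15, with pandas 2.3.3, numpy 2.4.6 and matplotlib 3.10.9. Alternatives were DESeq2 1.42.0, limma-voom (limma 3.58.1), upper quartile, factors from nuclear genes only, library size alone, RLE size factors, no filter, scaling by MT protein-coding counts, other denominators of the share, counts per kilobase, and each library left out in turn. With 1 library left out, the lone library of a group was assumed to vary like the other group. Leaving out libraries for the shares by complex was chosen after seeing the data. The statistics were tested on simulated data, in which 196 genes had a log2 change of 1. EdgeR called 71 of the 196 with the right sign, and it called 3 unchanged genes. A gene that was not called may therefore still differ.

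Between replicates, the chi-square per degree of freedom was 17.9 in the overexpressing and 31.3 in the control libraries, where sampling noise alone gives about 1. The genes named are every MT protein-coding and rRNA gene, tRNA genes with a mean of at least 10 counts, and nuclear genes fixed by name (TFAM, POLRMT, TFB2M, TEFM, LRPPRC, SLIRP, PNPT1, SUPV3L1, PPARGC1A, NRF1 and ESRRA). In each of the 12 nuclear lists they include every called gene where at most 6 were called, otherwise the 3 highest and 3 lowest. Called fibroblast and trophoblast markers are given as counts. The result of 1 gene that this rule names is not reported here. The members and lists were chosen with earlier results of these data known. The 12 nuclear lists cover MT DNA transcription and replication, RNA processing and turnover, translation factors, biogenesis regulators, subunits of complexes I to V, mitochondrial ribosomal proteins, stress response and mitophagy, and 3 more hold cell type markers. The ChIP-seq libraries were not analysed here.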

Additional observations from a re-analysis of the deposited data

How the results depend on the processing

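The difference in MT share kept its direction in every alternative tried, for all MT genes (1.09 to 2.14 points) and for the protein-coding genes. Leaving out a library could not reverse either, since both overexpressing libraries stood above both controls. The difference in rRNA share ran from -0.0145 to 0.00561 points with each library left out. The share of complex I ran from -0.623 to 0.985 points and that of complex V from -1.14 to 1.59 points with each library left out, and the latter was -0.249 points by counts per kilobase. These leave-one-out values by complex were chosen after seeing the data.

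Of the MT protein-coding genes, 5 were called higher under the other normalizations and tests, 8 with no filter, 0 when scaled by MT protein-coding counts, and 0 to 9 with each library left out. For the changes with no filter and without single libraries the cause was not tested. Scaling by MT counts centres these genes by construction. It gave a median of -0.00063 and reversed COX1 (-0.15), COX3 (-0.00063), ND4L (-0.26), ND4 (-0.019), ND5 (-0.29), ND6 (-0.12), and the tRNA genes starting at 3845 (-0.32), 6203 (-0.26), 6379 (-0.09), 8135 (-0.078), 8891 (-0.20), 10584 (-0.037), 12737 (-0.23) and 15267 (-0.042). By library size alone the tRNA gene at 3845 was at -0.000596.

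With each library left out, log2 fold changes that changed sign ran from -0.21 to 0.44 for ND4L, -0.17 to 0.26 for ND5, -0.22 to 0.0037 for the shorter and -0.48 to 0.27 for the longer rRNA. For tRNA genes they ran from -0.24 to 0.33 (start 3845), -0.43 to 0.69 (6203), -0.18 to 0.54 (8891), -0.44 to 0.037 (11000), -0.18 to 0.15 (12806) and -0.31 to 0.038 (12865). The cause was not tested. Nuclear mitochondrial genes called ran from 7 to 59 higher and from 3 to 9 lower.

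No paired analysis was possible because the overexpressing and control libraries share no replicate number. The filter on low counts left 7 of 22 tRNA genes untested, and the cause of their low counts was not tested. Scaling by MT counts was not applied to the nuclear lists.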

Other observations

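The values here were chosen after others had been seen and were given no adjusted test. Ratios of levels per kilobase were taken within each library for 10 pairs of MT genes, and the groups were apart in 6 of them. Pairs of nuclear genes were not taken, so this count has no background. Of the 5 ratios given here, the first 3 are of genes that overlap on the MT genome. ATP8 to ATP6 stood at 0.106 and 0.113 in the overexpressing and 0.142 and 0.164 in the control libraries, with the groups apart. ND4L to ND4 stood at 0.884 and 0.726 against 0.744 and 1.17, and ND6 to ND5 at 1.03 and 1.31 against 1.23 and 0.851, and both overlapped. COX1 to ND1 stood at 1.59 and 1.57 against 2.00 and 1.94, and ND5 to CYTB at 0.606 and 0.545 against 0.926 and 0.798, each with the groups apart. Counts on the rRNA genes per 100 counts on protein-coding genes were 0.481 and 0.443 against 0.507 and 0.783.

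Sums of CPM over MT-encoded subunits were divided by sums over the nuclear-encoded subunits found in the table, with no correction for gene length, so the ratios compare libraries and not genes. The nuclear sums cover 28 of 37 listed genes for complex I, 7 of 9 for complex III, 10 of 12 for complex IV and 11 of 18 for complex V, and 3 of those covered (in complexes I and III) had 0 counts in every library. The ratio was 3.51 and 2.74 for complex III in the overexpressing libraries against 1.99 and 2.66 in the controls. For complex I it was 9.56 and 7.48 against 6.96 and 8.26, for complex IV 14.9 and 12.7 against 12.7 and 16.2, and for complex V 2.54 and 2.30 against 2.33 and 2.26. The groups overlapped in complexes I, IV and V.

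The annotated length of 6 MT protein-coding genes (ND1, ND2, COX2, COX3, ND3 and ND4) ends 1 base past a whole number of codons, and such genes gain the end of their stop codon by polyadenylation. Their median log2 fold change was 0.44, and 4 of the 6 were called higher in edgeR, where 13.9% of all genes tested were. The other 7 had a median of 0.19, and 1 of the 7 was called higher, namely CYTB.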
